A study of Homo sapiens with 27 samples.

Results

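Long-term estrogen-deprived (LTED) MM134 cells of variant LTED-A were set directly against those of variant LTED-D, with 3 libraries of each, which are 6 of the 27 libraries in the series. MM134 (MDA-MB-134VI) is an established estrogen receptor-positive cell line of invasive lobular breast carcinoma, a subtype known for loss of the adhesion protein E-cadherin. Both variants grew out of the same parental line in charcoal-stripped, hormone-depleted serum over months, and they were raised independently of each other. The parental cells, used here only as a point of reference, had been hormone deprived for 3 days. All 26061 genes that passed a filter on low counts, of 60619 in the deposited table, entered the comparison. The 3 libraries of a variant come from wells seeded from the same line, so the p-values measure the spread between wells of 2 lines and not the spread between independent derivations.

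Estrogen deprivation removes the ligand of the estrogen receptor (ER), a nuclear receptor that drives growth in luminal breast cancer, and cells that regain growth in its absence do so by different routes. Some keep a high level of the receptor and of its target genes, some change growth factor signalling, and others shift lipid metabolism. The comparison asks in which of these programs the variants differ from each other.

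Total estimated counts ran from 54982585 to 101378762 in LTED-A and from 32284183 to 45318846 in LTED-D. Levels are given as CPM, counts per 1000000 after scaling, and differences as log2 values of LTED-A minus LTED-D. In such bulk samples, fewer cells of a kind and less RNA per cell cannot be told apart. The 8 luminal epithelial markers summed to between 6599 and 7293 CPM in the 6 libraries, and CDH1, which encodes E-cadherin, stood between 8.64 and 11.3 CPM. Replicate 2 of LTED-D stood apart by fibroblast markers. Their sum was 28.6 CPM there against 11.5 to 12.9 CPM in the other 5 libraries, and the collagen gene COL3A1 was at 5.23 CPM against at most 0.169 CPM. Parental replicate 3 stood apart in the same way, with a sum of 36.4 CPM against 20.8 and 23.4 CPM and COL3A1 at 5.51 CPM. Leaving it out changed the parental mean of the 111 named genes that reached 1 CPM there by 0.882 to 1.10 times. Counts were also taken without replicate 2 of LTED-D. Over 1.5-fold and with an adjusted p under 0.001, there were then 1085 genes higher in LTED-A and 1308 higher in LTED-D, against 1166 and 1410 with all libraries.

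Of the genes tested, 1166 (4.47%) were higher in LTED-A and 1410 (5.41%) were higher in LTED-D. Protein-coding genes made up 889 of the first set and 1173 of the second, which were 5.76% and 7.60% of the protein-coding genes tested. Shares of called list members given below are to be set beside these. The median log2 difference over all genes was 0.03. Past 4-fold there were 249 genes higher in LTED-A and 267 higher in LTED-D, and past 16-fold there were 47 and 48. Libraries of the variants did not overlap for 2575 of the 2576 called genes, counted with the rule that called them. The share without overlap over all genes tested is not given here, so this count adds no support to the calls.

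**Figure D1:**
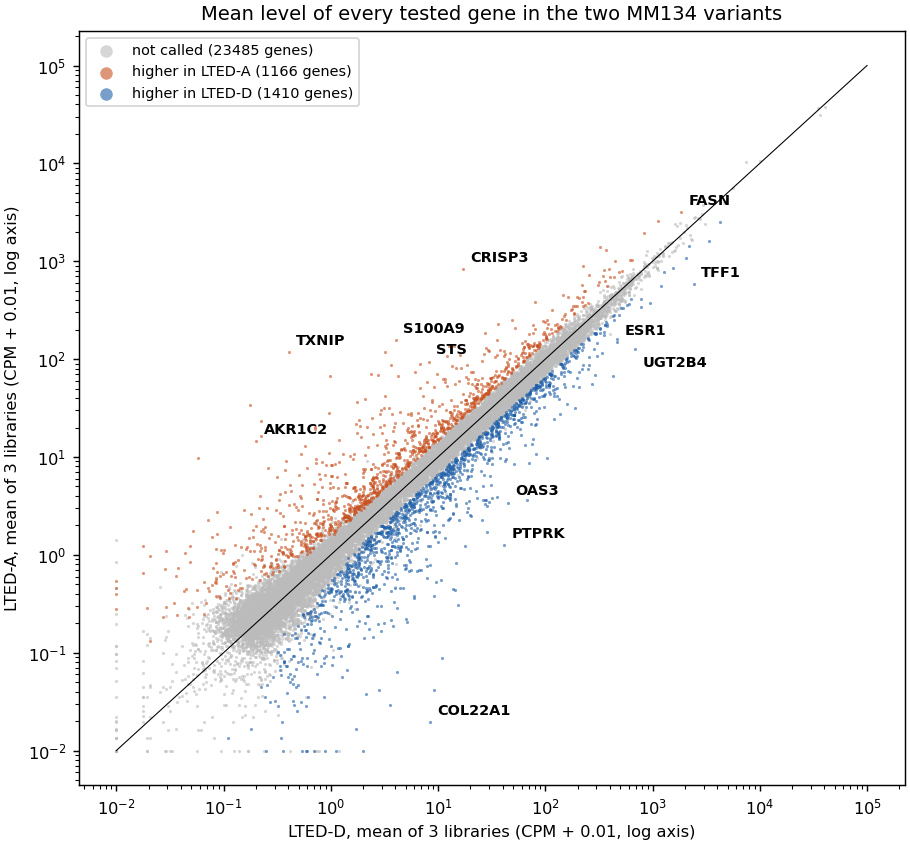
Mean level of each of the 26061 tested genes in LTED-D (x axis) and LTED-A (y axis), in CPM plus 0.01 on log axes, with the line of equal level. Orange points are the 1166 genes called higher in LTED-A and blue points the 1410 called higher in LTED-D. TXNIP, CRISP3 and S100A9 lie far above the line and COL22A1 and PTPRK far below it.

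The gene with the largest difference toward LTED-A was TXNIP (chr1:145992435-145996579, hg38), whose product binds thioredoxin and restrains glucose uptake. It stood at 118, 117 and 119 CPM in the LTED-A libraries and at 0.291, 0.788 and 0.116 CPM in those of LTED-D. Parental cells held 258 ± 12.9 CPM (SD, n = 3), so both variants lay below them and LTED-D was near the floor. The log2 difference between variants was 8.25 ± 0.14 (SE), with an adjusted p of 1.87e-18. SH3BGRL, a small protein with a thioredoxin-like fold, had 9.47 to 10.1 CPM in LTED-A, and LTED-D held 5 counts in all 3 libraries together against 2058 in LTED-A. The ratio of these sums was 215 after scaling, with an exact 95% interval of 92 to 663 that covers counting error only. Parental cells had 81 CPM of SH3BGRL.

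Secreted and inflammation-linked proteins were among the 12 largest differences toward LTED-A. CRISP3, a secreted cysteine-rich protein, stood at 854, 841 and 809 CPM in LTED-A against 18.1, 17.1 and 16.2 CPM in LTED-D. S100A9, a calcium-binding protein abundant in neutrophils, stood at 159, 159 and 155 CPM against 3.91, 3.88 and 4.33 CPM. The vanin VNN2 was at 67.2 to 69.3 CPM against 0.834 to 1.07 CPM. None of these genes passed 1 CPM on average in parental cells, at 0.961 CPM for CRISP3, 0.0367 CPM for S100A9 and 0.0178 CPM for VNN2. The protease inhibitor SLPI (log2 difference 6.21 ± 0.17 SE), the acute-phase protein SAA1 (4.90 ± 0.13) and the chemokine receptor CXCR1 (4.90 ± 0.22) were also among the 12. So were PACSIN3, a protein of membrane trafficking (6.77 ± 0.15), the ketosteroid reductase AKR1C2 (6.21 ± 0.16), the glutathione transferase GSTM1 (5.21 ± 0.07) and the transporter ABCC3 (4.89 ± 0.05). GSTM1 and ABCC3 were at 32.5 and 21.6 CPM in parental cells, between their levels in the variants.

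Toward LTED-D, the largest differences were in a collagen, a glutamate receptor subunit and proteins of the cell surface. COL22A1, a collagen of tissue junctions, stood at 8.67, 8.36 and 8.18 CPM in LTED-D. LTED-A held 2 counts in 3 libraries, and the ratio of summed counts was 879 with an exact 95% interval of 243 to 7265. Parental cells were as low, at 0.0107 CPM. GRIA3, an AMPA receptor subunit, had 9.22, 9.37 and 9.01 CPM in LTED-D against 0.0397, 0.0368 and 0.0183 CPM in LTED-A. It went the other way against parental cells, where it was at 17.5 CPM. The log2 difference between variants was -8.00 ± 0.16 (SE), with an adjusted p of 2.58e-17.

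PTPRK, a receptor tyrosine phosphatase, stood at 42.5, 42.1 and 40.2 CPM in LTED-D against 1.39, 1.23 and 1.13 CPM in LTED-A. The integrin subunit ITGA5, which pairs to form a fibronectin receptor, had 14.4 to 16.6 CPM against 0.239 to 0.347 CPM. Both were under 1.2 CPM on average in parental cells, at 0.344 and 1.19 CPM. The sulfotransferase SULT1C4 had 64.8 to 70.2 CPM in LTED-D against 3.38 to 4.06 CPM in LTED-A. The carboxypeptidase CPN1 (log2 difference -6.96 ± 0.20 SE), GASK1B (-5.01 ± 0.14), the cornified-envelope protein CRNN (-4.92 ± 0.12) and the ubiquitin ligase adaptor KLHL13 (-4.71 ± 0.26) were in the same set. It was completed by the monocarboxylate transporter SLC5A8 (-4.57 ± 0.14), CCDC50 (-4.30 ± 0.15) and PGM5 (-4.16 ± 0.14). CCDC50 was at 8.79 CPM in parental cells, near the 10.4 to 11.1 CPM of LTED-D.

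**Figure D2:**
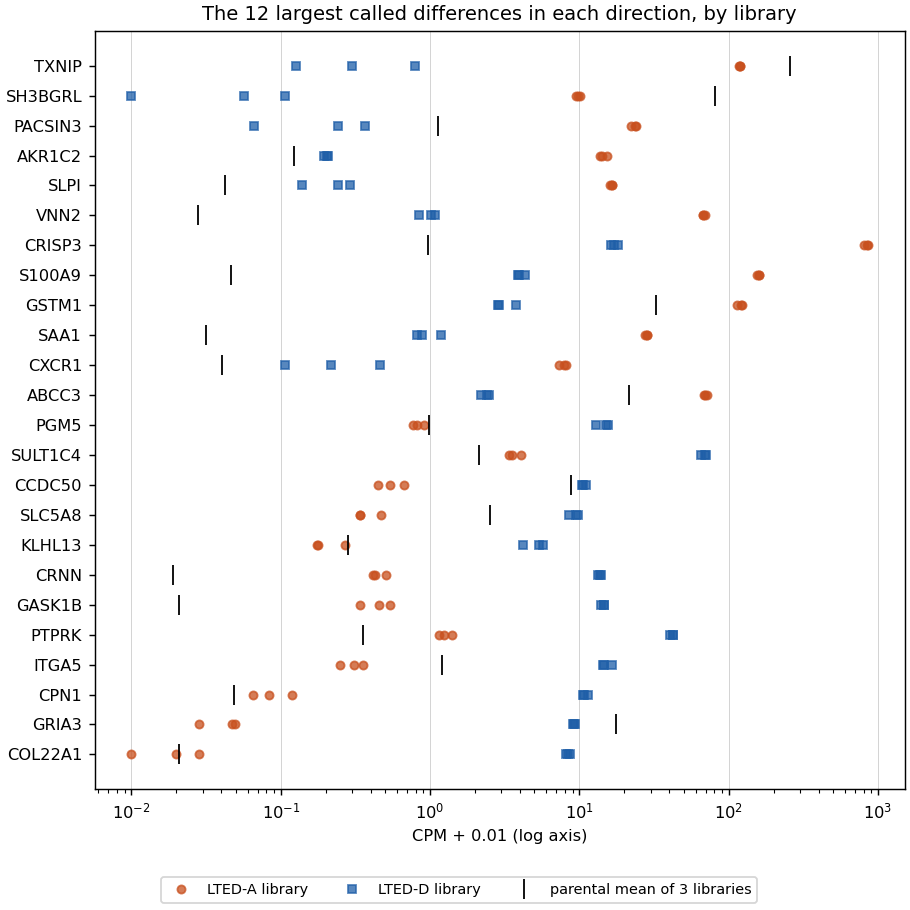
CPM plus 0.01 on a log axis for the 12 largest called differences in each direction, with 1 orange circle for each LTED-A library, 1 blue square for each LTED-D library and a black bar for the mean of the 3 parental libraries. The circles and squares of a gene do not overlap, as the choice of these genes required. Parental bars lie on the LTED-D side for genes such as AKR1C2 and SLPI and on the LTED-A side for TXNIP and COL22A1.

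ESR1, which encodes ER, was higher in LTED-D, and of its target genes more were called higher in LTED-D than in LTED-A. ESR1 (chr6:151656691-152129619) stood at 466, 474 and 459 CPM in LTED-D against 146, 152 and 148 CPM in LTED-A. The parental mean was 360 ± 11.3 CPM (SD, n = 3), so the variants lay on either side of it. The log2 difference was -1.65 ± 0.03 (SE) with an adjusted p of 4.75e-18. A list of 22 genes held ESR1 itself and estrogen-regulated genes. Of these, 9 were higher in LTED-D, ESR1 among them, 3 were higher in LTED-A and 10 were not called. The median log2 difference was -0.40 against 0.03 over all genes. These shares were 40.9% and 13.6%, beside 5.41% and 4.47% over all genes.

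TFF1, a secreted trefoil peptide and a classic estrogen target, stood at 2439, 2348 and 2506 CPM in LTED-D against 564, 579 and 619 CPM in LTED-A. Both variants were far above the parental 4.28 CPM. The ER cofactor GREB1 had 57.3 to 60.4 CPM in LTED-D, 16.3 to 17.9 CPM in LTED-A against 69.8 CPM in parental cells, so LTED-D was close to parental cells and LTED-A below both. ABAT, an enzyme of GABA breakdown, was higher in LTED-D by -1.94 ± 0.03 (SE). The 3 members higher in LTED-A were the arginine transporter SLC7A2 (1.61 ± 0.07), the cadherin CELSR2 (0.91 ± 0.05) and the chemokine CXCL12 (0.80 ± 0.04). PGR, which encodes the progesterone receptor and is another ER target, stood at 0.179, 0.184 and 0.146 CPM in LTED-A against 0, 0.563 and 0.209 CPM in LTED-D, with 2.65 CPM in parental cells. Its libraries overlapped between the variants (adjusted p = 0.408).

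Among 20 luminal identity genes, 3 (15%) were higher in LTED-D and 1 (5%) was higher in LTED-A, with a median of -0.01. Over all genes these shares were 5.41% and 4.47%. The mucin MUC1 was at 5.24 to 5.93 CPM in LTED-D against 0.622 to 0.791 CPM in LTED-A. GATA3, a transcription factor of luminal cells, was at 161 to 207 CPM against 96.7 to 111 CPM, and the lowest LTED-D library was replicate 2. The tight junction gene CLDN7 was higher in LTED-A by 0.67 ± 0.04 (SE). The keratins KRT8, KRT18 and KRT19 differed by -0.05, 0.13 and 0.36 on the log2 scale and were not called.

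Secreted and calcium-binding proteins of luminal cells were the list with the highest share of calls. Of 22 anterior gradient, S100 and secretory luminal genes, 19 (86.4%) were higher in LTED-A and 0 were higher in LTED-D, with a median of 1.65. The list was drawn up with earlier results of these libraries known, in which several of its members had already stood out, so its count is not independent evidence. S100A8, the partner of S100A9, had 85.7 to 90.7 CPM in LTED-A against 3.32 to 3.85 CPM in LTED-D. The mammaglobin SCGB2A2 had 22.6 to 25.6 CPM against 1.76 to 1.84 CPM. AGR3, a secretory-pathway protein often found with ER, had 55.5 to 60.4 CPM against 7.43 to 8.21 CPM. All 3 were under 0.34 CPM in parental cells. AGR3, S100A8 and SCGB2A2 stood above parental cells in both variants, by log2 values of 11.37, 8.05 and 7.90 in LTED-A and 8.48, 3.46 and 4.19 in LTED-D. S100A4, S100A10 and S100A11 were not called between the variants, at 0.17, -0.45 and 0.01.

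Interferon-stimulated genes were split between the variants. Of 42 tested, 17 (40.5%) were higher in LTED-A, 5 (11.9%) were higher in LTED-D and 20 were not called, with a median of 0.29. Without replicate 2 of LTED-D, 15 were higher in LTED-A and 5 higher in LTED-D. IFIT1, which binds viral RNA, stood at 5.97, 6.40 and 6.66 CPM in LTED-A against 0.906, 0.957 and 1.16 CPM in LTED-D. ISG15, a ubiquitin-like modifier, stood at 5.33, 6.33 and 6.33 CPM against 0.744, 0.872 and 0.718 CPM. RSAD2 (viperin), an antiviral enzyme, had 4.73 to 5.38 CPM against 0.356 to 0.440 CPM, and IFI44 had 1.47 to 1.56 CPM against at most 0.113 CPM. For none of these 4 did the libraries overlap, and all 4 were under 1.7 CPM in parental cells.

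Among the 5 genes higher in LTED-D, OAS3, which makes the 2-5A signal that activates RNase L, stood at 44.8, 41.9 and 48.1 CPM in LTED-D against 3.34, 3.04 and 3.86 CPM in LTED-A. Its neighbour OAS2 had 5.03 to 5.68 CPM against 0.846 to 0.883 CPM, while OAS1 and OASL were called higher in LTED-A, at 1.28 and 2.49. PARP9 and DTX3L, which encode partner proteins and start next to each other on chromosome 3, were at -0.91 and -0.88, and HERC6 was at -1.04. Of the factors that carry the interferon signal, STAT2 at 0.08 and IRF1 at -0.42 ± 0.09 (SE) were called in neither direction.

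Some interferon-responsive genes of each direction carry the same kind of promoter element, and short stretches upstream of 6 genes picked from those with a match are shown. They come from RefSeq promoter windows on GRCh38.p14, which run from 250 bases before to 50 bases after a start site. The search was for GAAANNGAAA or its reverse complement TTTCNNTTTC, the core of the interferon-stimulated response element, and capitals mark the matches. Where a gene had several windows, the one with a match nearest to the annotated gene start was taken. Each stretch of 30 bases is read on the strand of its gene, from the forward strand except for PARP9, and lies at chr10:89392504-89392533 for IFIT1, chr1:1013377-1013406 for ISG15, chr2:6877622-6877651 for RSAD2, chr1:78649759-78649788 for IFI44, chr12:112938321-112938350 for OAS3 and chr3:122564322-122564351 for PARP9.
IFIT1: tagTTTCACTTTCcccTTTCGGTTTCccta
ISG15: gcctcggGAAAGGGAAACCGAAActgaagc
RSAD2: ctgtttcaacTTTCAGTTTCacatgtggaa
IFI44: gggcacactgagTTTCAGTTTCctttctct
OAS3: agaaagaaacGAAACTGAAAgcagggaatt
PARP9: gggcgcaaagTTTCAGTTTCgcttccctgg

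The matches of IFIT1, ISG15, RSAD2 and IFI44 belong to genes higher in LTED-A, and those of OAS3 and PARP9 to genes higher in LTED-D. The stretches of OAS3 and RSAD2 overlap annotated exons of the same gene, and that of PARP9 an exon of DTX3L. Of the genes with a window in the table, the motif was present in 10 of 14 called higher in LTED-A, 3 of 4 called higher in LTED-D and 10 of 15 not called. Over all 27305 genes in the table, 4.38% had it. A match is a description of the sequence and was not tested as a binding site.

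MHC class II genes, which present peptides to helper T cells, were higher in LTED-A as a group. Of 11 tested, 9 (81.8%) were higher in LTED-A and 0 in LTED-D, with a median of 0.87. HLA-DPA1 stood at 36.5, 40.04 and 38.7 CPM in LTED-A against 12.8, 13.6 and 13.5 CPM in LTED-D. HLA-DRA (chr6:32439878-32445046) had 134.2 to 136 CPM against 74.2 to 76.5 CPM, a log2 difference of 0.84 ± 0.03 (SE), and HLA-DMA, which loads peptides, had 67.5 to 70.8 CPM against 32.9 to 34.7 CPM. HLA-DPB1 and HLA-DQB1 were at 0.90 ± 0.09 and 0.89 ± 0.04. CIITA, the coactivator of these genes, had 17.9 to 18.5 CPM in LTED-A against 12.7 to 13.9 CPM in LTED-D, without overlap, but at 0.46 ± 0.05 it did not reach the 1.5-fold limit. HLA genes are near-identical copies in part, and how the estimated counts were divided among them is uncertain.

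Of 9 macrophage and dendritic cell markers, the sum was 27.7 to 39.4 CPM in LTED-A against 9.08 to 13 CPM in LTED-D. That difference lay mostly in CD68, at 13.7 to 14.9 CPM against 3.69 to 4.26 CPM, and in LYZ, at 9.07 to 10.2 CPM against 0.602 to 0.776 CPM, both of which other cell types can express. ITGAX varied within each variant, from 1.31 to 13.04 CPM in LTED-A and from 2.46 to 6.89 CPM in LTED-D. CD163 was at 1.49 to 1.67 CPM in LTED-A against 0.906 to 1.30 CPM in LTED-D, without overlap, and CSF1R was at 0.457 to 0.699 CPM against 0.232 to 0.619 CPM. CD14, AIF1, FCER1G and TYROBP, the other 4, were under 0.4 CPM in all 6 libraries, and TYROBP was at 0. The part of these cells in the class II difference was not tested. The lymphocyte marker PTPRC was at 0.128 to 0.366 CPM, and CD3D was at 0 in all 6.

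MHC class I genes did not move with class II. Of 15 tested, 1 (6.67%) was called higher in LTED-A and 2 (13.3%) higher in LTED-D, beside 4.47% and 5.41% over all genes. B2M, the shared light chain, was higher in LTED-A (0.80 ± 0.03 SE), and PSMB8, a subunit of the immunoproteasome, was higher in LTED-D (-1.59 ± 0.12). The peptidase ERAP2 was called higher in LTED-D (-0.74 ± 0.15), but the call was lost without any 1 library other than replicate 3 of LTED-D, and without replicate 2 of LTED-D its adjusted p was 0.00732. HLA-B and HLA-C were at -0.38 and -0.49 and were not called.

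**Figure D3:**
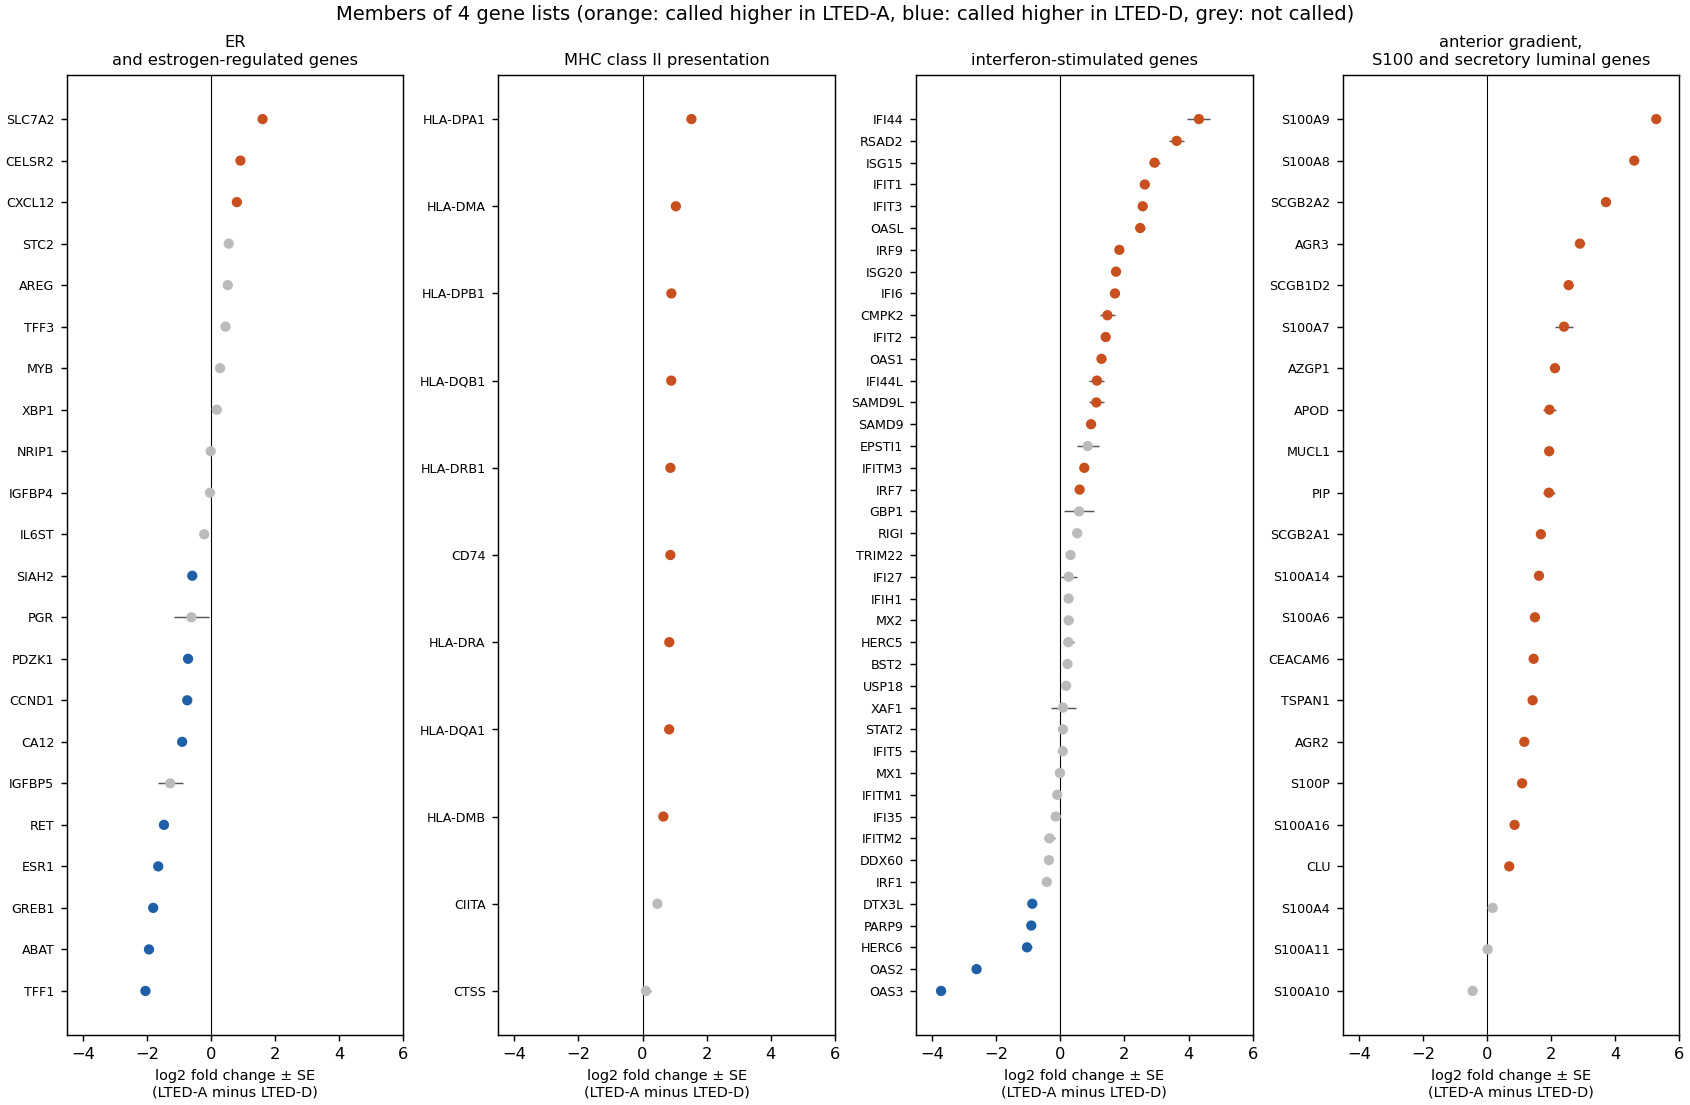
Log2 fold change (LTED-A minus LTED-D) with its standard error for members of 4 gene lists, in orange where called higher in LTED-A, in blue where called higher in LTED-D and in grey where not called. Members of the list of ESR1 and estrogen-regulated genes are mostly at or below 0, with ESR1 at -1.65. MHC class II and secretory luminal genes lie mostly above 0, and interferon-stimulated genes reach from -3.72 for OAS3 to 4.33 for IFI44.

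NF-kB and acute-phase genes held members that moved apart. Of 19 tested, 8 (42.1%) were higher in LTED-A and 2 (10.5%) were higher in LTED-D, with a median of 0.14. SAA2, the near-identical neighbour of SAA1, had 10.2 to 10.9 CPM in LTED-A against 0.440 to 0.591 CPM in LTED-D. The adhesion receptor ICAM1 had 3.63 to 3.96 CPM against 0.453 to 0.579 CPM, and the chemokine CCL20 had 1.01 to 1.25 CPM against at most 0.113 CPM. The serpins SERPINA1 and SERPINA3, which inhibit serine proteases, were higher in LTED-D by -1.64 ± 0.05 and -1.48 ± 0.12. RELA and NFKB1, which encode NF-kB itself, were at 0.14 and -0.29 and not called. In the cytokine and STAT3 list of 20, IFNGR1 (0.95 ± 0.03) and JAK2 (0.70 ± 0.06) were higher in LTED-A, and the feedback inhibitors SOCS3 (-1.58 ± 0.17) and SOCS2 (-1.36 ± 0.04) were higher in LTED-D.

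Enzymes that modify drugs and steroids were the list with the next highest median, at 1.12. Of 25 tested, 13 (52%) were higher in LTED-A and 4 (16%) were higher in LTED-D. AKR1C2 stood at 14.2, 13.8 and 15.3 CPM in LTED-A against 0.194, 0.197 and 0.185 CPM in LTED-D, and GSTM1 at 113, 121 and 123 CPM against 2.88, 2.84 and 3.78 CPM. STS, the steroid sulfatase that frees estrogens from their sulfates, stood at 93.4, 95.8 and 93.5 CPM against 7.86, 8.27 and 8.39 CPM, with 11.9 CPM in parental cells. STS, AKR1C2 and GSTM1 showed no overlap. GSTA1 was also called, from few counts: 87 in LTED-A against 5 in LTED-D, a ratio of 9.09 with an exact 95% interval of 3.75 to 28.7.

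UGT2B4, a transferase that couples glucuronic acid to steroids and bile acids, went the other way. It stood at 680, 706 and 679 CPM in LTED-D against 127, 128 and 123 CPM in LTED-A, and parental cells had 0.562 CPM. UGT2B11 (-1.61 ± 0.09 SE), UGT2B15 (-0.74 ± 0.08) and the aldo-keto reductase AKR7A3 (-0.76 ± 0.04) were also higher in LTED-D. The UGT2B, AKR1C and GSTM families each hold near-identical members whose counts can be split by the estimation. Of 12 ABC transporters, 6 (50%) were higher in LTED-A and 2 (16.7%) in LTED-D. ABCC3 had 68.8 to 71.3 CPM in LTED-A against 2.17 to 2.46 CPM in LTED-D, the lipid transporter ABCA12 had 16.5 to 17.8 CPM against 2.15 to 2.76 CPM, and ABCC11 had 205 to 207 CPM against 101 to 106 CPM. ABCA3 (-0.87 ± 0.03) and ABCC8 (-0.75 ± 0.07) were higher in LTED-D.

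**Figure D4:**
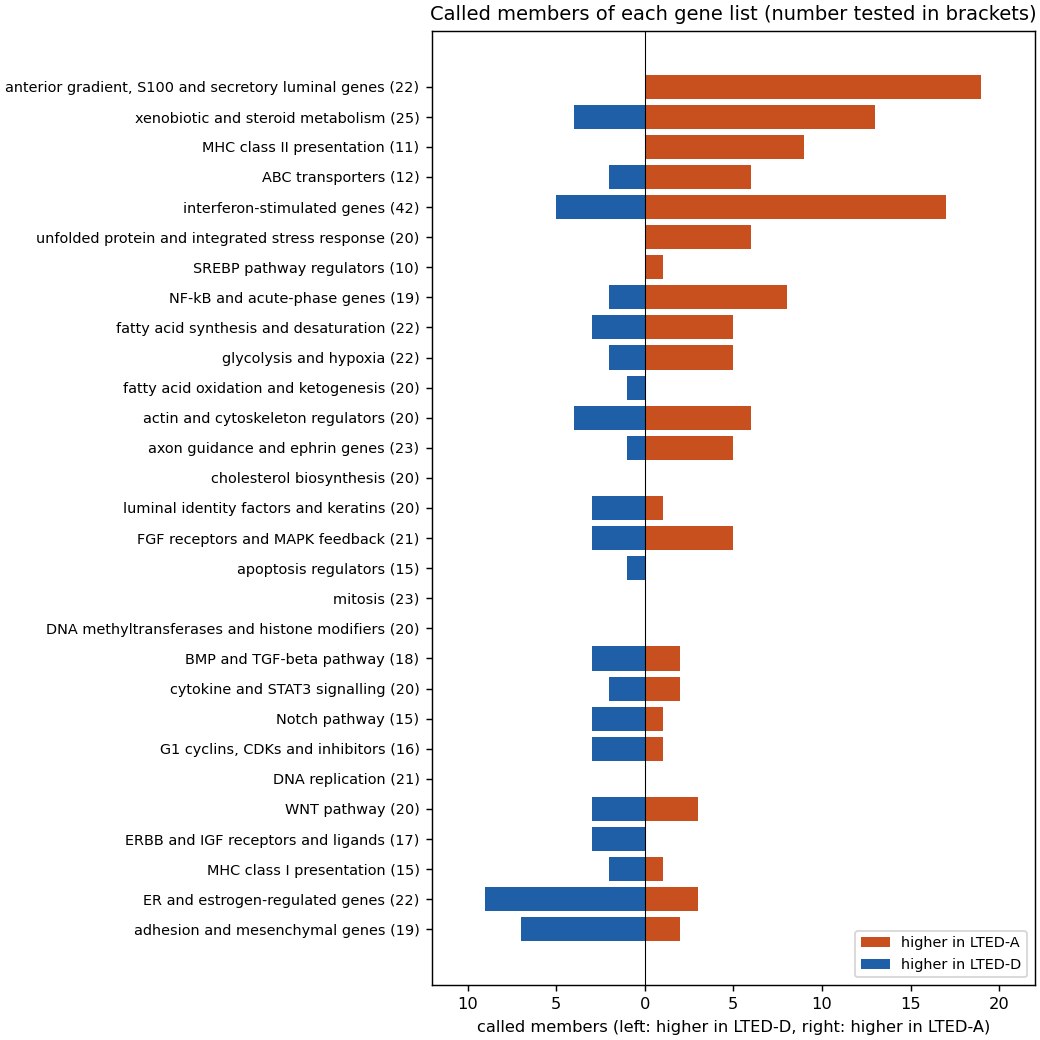
Number of called members in each of 29 gene lists, to the left for genes higher in LTED-D and to the right for genes higher in LTED-A, ordered by the median log2 difference of the list with the highest at the top. The bars reach 19 for secretory luminal genes and 17 for interferon-stimulated genes toward LTED-A. Toward LTED-D they reach 9 for ESR1 and estrogen-regulated genes and 7 for adhesion and mesenchymal genes.

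Lipid synthesis genes differed in part. SREBF1, which encodes the sterol regulatory element-binding protein that drives fatty acid synthesis, stood at 277, 285 and 304 CPM in LTED-A against 153, 150 and 155 CPM in LTED-D. SREBF2, its counterpart for cholesterol genes, was at 0.27 ± 0.04 (SE) and did not reach the fold limit. Of 22 fatty acid genes, 5 (22.7%) were higher in LTED-A and 3 (13.6%) in LTED-D. The stearoyl-CoA desaturase SCD had 2463 to 2606 CPM in LTED-A against 1120.3 to 1134 CPM in LTED-D, and the fatty acid synthase FASN had 2989 to 3381 CPM against 1773 to 1922 CPM. ME1, which makes NADPH for synthesis, had 8.14 to 8.68 CPM against 0.776 to 1.04 CPM, and DGAT2, an enzyme of triglyceride assembly, had 114 to 118 CPM against 45.7 to 47.6 CPM. MID1IP1, a regulator of acetyl-CoA carboxylase, was also higher in LTED-A at 0.68.

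SCD, FASN and DGAT2 were above parental cells in both variants. The parental means were 468 CPM for SCD, 363 CPM for FASN and 5.86 CPM for DGAT2. Toward LTED-D went the desaturase FADS2 (-0.79 ± 0.05 SE), the carboxylase ACACB (-0.68 ± 0.04) and SCD5 (-0.59 ± 0.03). FADS2, with a parental mean of 258 CPM, was far below parental cells in both variants, at log2 values of -5.12 (LTED-A) and -4.33 (LTED-D). SCD5 was also lower in both, at -1.77 and -1.18, whereas ACACB was higher, at 0.65 and 1.33. For LTED-A, 8 of the 22 genes were called above parental cells and 6 below. For LTED-D these numbers were 7 and 6. The shares called against parental cells over all genes are not given here, so these counts do not mark out the list. SCD5 was just under the 1.5-fold limit without replicate 1 or without replicate 2 of LTED-D, at -0.58 in each case. Cholesterol synthesis differed little. None of its 20 genes was called by edgeR or DESeq2, at log2 differences from -0.49 to 0.43. An unadjusted p under 0.05 was found for 14, 8 of them higher in LTED-D and 6 higher in LTED-A. Over all 26061 genes, 10858 had an adjusted p, the stricter measure, under 0.05 at any fold change. In fatty acid oxidation, 1 of 20 (5%) was called, the short-chain dehydrogenase ACADS (-0.97 ± 0.06).

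Growth factor receptors and feedback genes differed in both directions. FGFR4, a fibroblast growth factor receptor, stood at 675, 692 and 733 CPM in LTED-A against 336, 347 and 360 CPM in LTED-D, above the parental 159 CPM in both. FGFR3 was higher in LTED-D, at 13.9 to 14.99 CPM against 4.54 to 5.28 CPM. FGFR1 had 1244 to 1350 CPM in LTED-A against 1602 to 1667 CPM in LTED-D, without overlap but under the fold limit at -0.34 ± 0.03 (SE). The feedback genes SPRY1 (1.08 ± 0.04), DUSP5 (1.03 ± 0.04), PHLDA1 (0.73 ± 0.07) and the decoy-like receptor FGFRL1 (0.66) were higher in LTED-A, and the transcription factor ETV5 (-0.68 ± 0.04) was higher in LTED-D. In the ERBB and insulin-like growth factor list of 17, 3 (17.6%) were higher in LTED-D and 0 in LTED-A, beside 5.41% and 4.47% over all genes. The binding protein IGFBP2 stood at 132, 137 and 138 CPM in LTED-D against 25.8, 27.5 and 28.7 CPM in LTED-A, and IGFBP3 and IRS2 were at -0.75 ± 0.04 and -0.64 ± 0.10. IRS2 was at -0.54 and not called without replicate 3 of LTED-D.

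Cell cycle genes did not pass the fold limit apart from regulators of G1. No member of the DNA replication list (21 genes) or the mitosis list (23 genes) was called by edgeR, and DESeq2 called 0 and 1 of them, the latter being the mitotic regulator FOXM1, at -0.58 in edgeR. Unadjusted p was under 0.05 for 15 and 21 of them, of which 13 and 17 were higher in LTED-D, and the medians were -0.18 and -0.14. Over all 26061 genes, 10858 had an adjusted p, the stricter measure, under 0.05 at any fold change. Counts at an unadjusted p in this paragraph are to be set beside that number and do not mark out a list. The proliferation marker MKI67 had 178 to 182 CPM in LTED-A against 199 to 217 CPM in LTED-D. The cyclin CCND1 had 4192 to 4288 CPM in LTED-D against 2455 to 2626 CPM in LTED-A, while its kinase partner CDK6 had 113 to 123 CPM in LTED-A against 59.98 to 64.01 CPM in LTED-D. The inhibitor CDKN1C was higher in LTED-D (-1.65 ± 0.09 SE). CDKN1A was at -0.59 ± 0.10, close to the fold limit, and was not called without replicate 2 or replicate 3 of LTED-D or replicate 1 of LTED-A. The survival gene BCL2, a known ER target, had 15.01 to 16.7 CPM in LTED-D, 4.74 to 5.02 CPM in LTED-A against 91.5 CPM in parental cells. Of 20 DNA methyltransferases and histone modifiers, 0 were called by edgeR or DESeq2, with 16 at an unadjusted p under 0.05, 13 of them higher in LTED-D. Without replicate 2 of LTED-D, the methyltransferase DNMT3B was called at -0.61, and so was FOXM1 of the mitosis list, at -0.63.

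Adhesion and mesenchymal genes had the lowest median of all lists, at -0.61. Of 19 tested, 7 (36.8%) were higher in LTED-D and 2 (10.5%) were higher in LTED-A. N-cadherin (CDH2) stood at 51.5, 50.3 and 52.5 CPM in LTED-D against 8.77, 8.33 and 8.32 CPM in LTED-A, with 52.4 CPM in parental cells. E-cadherin (CDH1) did not pass the test, at 0.18 ± 0.07 (SE). SPARC was at -1.90 ± 0.29, and its LTED-D value of 1.46 CPM in replicate 2, the library with fibroblast markers, exceeded the 0.615 and 0.741 CPM of the other 2. The call for SPARC was kept without replicate 2. SNAI1 (-1.46 ± 0.31) was lost without any 1 of 5 libraries, all but replicate 2 of LTED-D. The integrin ITGA6 (0.89 ± 0.04) and the transcription factor ZEB1 (0.92 ± 0.15) were higher in LTED-A, the second of these not without replicate 3 of LTED-D, with the LTED-A and LTED-D libraries alone or with DESeq2.

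Developmental pathways were called in both directions, with 6 of 20 WNT genes, 4 of 15 Notch genes and 5 of 18 BMP and TGF-beta genes past the test. Calls toward LTED-A made up 15%, 6.67% and 11.1% of these lists, beside 4.47% over all genes. Calls toward LTED-D made up 15%, 20% and 16.7%, beside 5.41%. In the WNT list, the antagonist NKD1 stood at 24.6, 23.97 and 25.7 CPM in LTED-A against 2.26, 2.36 and 2.59 CPM in LTED-D, and the feedback gene AXIN2 at 4.03 to 5.03 CPM against 11.3 to 11.6 CPM. The ligand WNT4 (0.77 ± 0.06 SE) was higher in LTED-A, and the receptor FZD7 (-2.38 ± 0.13) and the ligand WNT11 (-0.62 ± 0.10) were higher in LTED-D, WNT11 not without replicate 2 of LTED-A. WNT5A was called at 2.08 ± 0.45 but was under 0.3 CPM in all 6 libraries, and it lost its call without replicate 1 or 3 of either variant. The Notch target HEY2 had 9.93 to 10.4 CPM in LTED-D against 1.40 to 1.97 CPM in LTED-A. NOTCH1 (-0.78 ± 0.08) and NRARP (-0.60 ± 0.08) went the same way and the ligand DLL1 (0.64 ± 0.06) the other way. NRARP was not called without replicate 1 of LTED-A or replicate 3 of LTED-D.

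In the BMP and TGF-beta list, the ligand BMP7 stood at 27.1, 26.99 and 28.03 CPM in LTED-D against 3.29, 2.70 and 3.82 CPM in LTED-A, with 20.1 CPM in parental cells. The receptor BMPR1B was higher in LTED-A (1.37 ± 0.10 SE), as was TGFBR1 (0.60 ± 0.03), which was under the fold limit without replicate 3 of LTED-D. The signal carrier SMAD3 (-0.70 ± 0.06) and the inhibitor SMAD7 (-0.78 ± 0.05) were higher in LTED-D. Of 23 axon guidance genes, 5 (21.7%) were higher in LTED-A and 1 (4.35%) was higher in LTED-D. NRP1, a receptor for semaphorins and VEGF, had 22.01 to 22.9 CPM in LTED-A against 4.54 to 4.79 CPM in LTED-D. UNC5D (1.44 ± 0.19), EFNA4 (0.80 ± 0.08), the netrin NTN4 (0.72 ± 0.04) and ROBO1 (0.64) went with it, and the receptor EPHB2 (-0.75 ± 0.11) did not. UNC5D was low in both variants, at 0.567 to 0.685 CPM in LTED-A against 0.169 to 0.291 CPM in LTED-D, with 18.1 CPM in parental cells.

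In the cytoskeleton list of 20, 6 (30%) were higher in LTED-A and 4 (20%) in LTED-D. The membrane-binding protein ANXA2 stood at 42.2, 41.3 and 41.1 CPM in LTED-A against 2.78, 3.88 and 2.87 CPM in LTED-D, with 75.2 CPM in parental cells. The protease subunit CAPN2 had 16.8 to 18.2 CPM against 1.62 to 1.81 CPM, and ANXA1 was at 2.36 ± 0.12 (SE). The tubulins were split. TUBB3 was higher in LTED-A (0.90 ± 0.06), and TUBB2B (-2.93 ± 0.08) and TUBA1A (-1.16 ± 0.03) were higher in LTED-D, along with ANXA3 (-2.46 ± 0.17) and LIMCH1 (-0.66 ± 0.04).

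Genes of the unfolded protein and integrated stress response were called only toward LTED-A, with 6 of 20 (30%) and a median of 0.18. TRIB3, a pseudokinase induced by amino acid shortage, stood at 246, 249 and 256 CPM in LTED-A against 47.7, 49.1 and 48.8 CPM in LTED-D. CHAC1, which degrades glutathione, had 2.90 to 3.22 CPM against 0.985 to 1.27 CPM. DDIT3 (0.69 ± 0.05 SE) and HERPUD1 (0.73 ± 0.04) followed. The chaperone HSPA5 was at 0.04 and was not called. Of 22 glycolysis and hypoxia genes, 5 (22.7%) were higher in LTED-A, or 4 without replicate 2 of LTED-D, and 2 (9.09%) in LTED-D. The glucose transporter SLC2A1 stood at 764, 791 and 792 CPM in LTED-D against 333, 344 and 356 CPM in LTED-A, where parental cells had 363 CPM. CA9 (2.32 ± 0.17), ADM (1.15 ± 0.13), PFKP (0.93 ± 0.07), VEGFA (0.89 ± 0.04) and the hexokinase HK2 (0.60) were higher in LTED-A, and ALDOC (-0.80 ± 0.06) was higher in LTED-D. Glycolytic enzymes such as GAPDH and PGK1 were at -0.02 and -0.07.

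Part of the difference followed position along the genome. Genes averaging 5 CPM or more were read in windows of 40 neighbours, and 3 of 551 windows had a median beyond 0.5 in size. All 3 were on the part of chromosome 16 that precedes its largest gap between genes, from position 22910 to 34160036, which is its short arm (16p). Its 302 protein-coding genes had a median of -0.48, and 89 (29.5%) of them were higher in LTED-D against 6 higher in LTED-A. Over all protein-coding genes at this level, 6.25% were higher in LTED-D. Genes on the long arm (16q) had a median of 0.00, with 3 of 214 higher in LTED-D.

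Chromosomes 7 and 12, picked out after their values were seen, went the same way by smaller amounts. The median was -0.27 over 507 genes of chromosome 7 and -0.26 over 578 genes of chromosome 12, while the other chromosomes and 16q had medians from -0.03 to 0.04. Against parental cells, the 16p median was 0.58 in LTED-D and 0.11 in LTED-A, that of chromosome 7 was 0.36 and 0.08, and that of chromosome 12 was 0.32 and 0.05. By library, the 16p median over the parental mean was 0.56, 0.57 and 0.58 in LTED-D and 0.08, 0.11 and 0.15 in LTED-A. Without parental replicate 3 these ran from 0.57 to 0.59 and from 0.08 to 0.14. Together, these 3 regions held 207 (30.6%) of the 676 genes at this level that were higher in LTED-D, and 12.8% of the genes. The number of DNA copies was not measured.

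The 3 called 16p genes with the highest levels were EIF3C, a translation initiation factor that has a near-identical copy on the same arm, ARL6IP1, a protein of the endoplasmic reticulum, and HAPSTR1. EIF3C stood at 1295, 1203 and 1301 CPM in LTED-D against 729, 791 and 801 CPM in LTED-A. ARL6IP1 and HAPSTR1 were at -0.69 ± 0.03 and -0.77 ± 0.03 (SE). ABAT and ABCA3 lie on 16p as well, whereas ABCC6 on the same arm was higher in LTED-A at 1.34 ± 0.06, and CIITA, which was not called, was at 0.46 ± 0.05. Of the large differences toward LTED-D above, ITGA5, SLC5A8, OAS2 and OAS3 lie on chromosome 12. NTN4 (0.72 ± 0.04), PHLDA1 (0.73 ± 0.07) and DDIT3 (0.69 ± 0.05), called higher in LTED-A, lie there too. Of the 578 protein-coding genes read on chromosome 12, 58 were higher in LTED-D and 19 higher in LTED-A. The part of position in the differences of single genes was not tested.

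**Figure D5:**
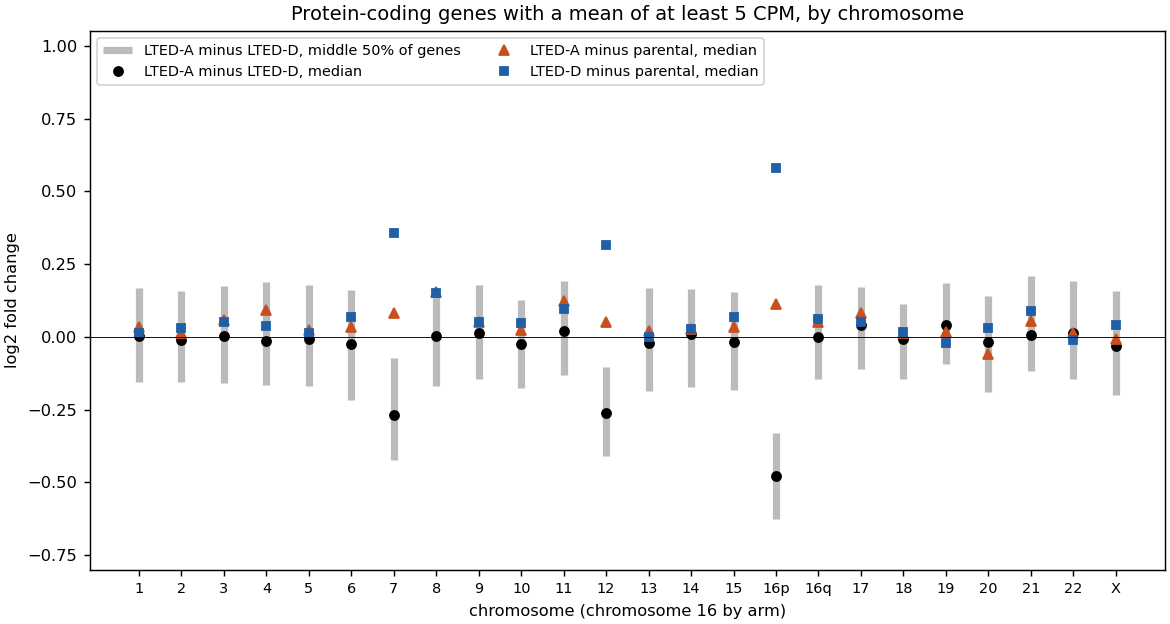
Median log2 fold change of protein-coding genes averaging 5 CPM or more, by chromosome, with chromosome 16 split by arm: black points for LTED-A minus LTED-D with grey bars for the middle 50% of genes, orange triangles for LTED-A minus parental and blue squares for LTED-D minus parental. The blue squares of 7, 12 and 16p stand at 0.36, 0.32 and 0.58 and the orange triangles at 0.08, 0.05 and 0.11. The comparisons share the parental libraries.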

How the data were processed

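RNA-Seq libraries were made by the authors with a stranded total RNA kit, and the deposited values are estimated counts per gene from Salmon 0.6.0 against hg38 and Ensembl release 82, one file for all samples. The columns of LTED-A replicate 1 and parental replicate 3 sum to all fragments the study lists as observed, the others to the mapped part. Rounded counts of the 15 MM134 libraries (5 groups) were fitted with edgeR 4.0.16 in R 4.3.3 (filterByExpr, TMM, quasi-likelihood test, Benjamini-Hochberg adjustment), and the LTED-A minus LTED-D contrast was tested. Calls needed over 1.5-fold and an adjusted p under 0.001, as in the study. DESeq2 1.42.0 was an alternative.

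Symbols and coordinates were taken from GENCODE 44, which held 56434 of the 60619 identifiers. Of the tested genes, 730 had no entry there and 24 called genes shared all rounded counts with another gene. Among these were 11 copies of U2 small nuclear RNA on chromosome 17, which count as 1 measurement.

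The members and lists were chosen with earlier results of these data known. Named were the 12 protein-coding genes of at least 5 CPM with the largest called difference in each direction without overlap, up to 4 called members of a list and direction, a fixed set of 14 genes, and the 3 called genes with the highest level of a described stretch. Where a list had 5 called members in 1 direction, the fifth was added after its values were seen, and so were uncalled members given for contrast. Some genes of the lists are counted but not reported here by name.

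The fit was tested on simulated data for LTED-A against LTED-D over 25293 genes. It called 88 of 100 genes changed 2-fold, 100 of 100 changed 4-fold, and 1 unchanged gene. The changed genes were drawn from those with a mean of at least 1 CPM, so recovery below that level was not tested. Counts limit precision most for genes under 1 CPM.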

Additional observations from a re-analysis of the deposited data

How the results depend on the processing

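Counts of called genes were within 1.5 times of 1166 and 1410 with no filter on low counts, with at least 10 counts in each library, with RLE size factors, with DESeq2, with the LTED-A and LTED-D libraries alone, with libraries thinned to the smallest, and without any 1 library (1051 to 1104 higher in LTED-A and 1252 to 1321 higher in LTED-D). With a 2-fold minimum they were 645 and 786, with no fold minimum 2877 and 3700, and with an adjusted p under 0.05, 1788 and 1968. Replicate numbers did not pair the samples, as same-numbered deviations correlated at -0.08, -0.01 and 0.14, and the fit with the replicate block called 1135 and 1359 genes. No named gene changed direction once called. The median for 16p was between -0.50 and -0.45 in the 13 other fits, and those for chromosomes 7 and 12 were between -0.29 and -0.25 and between -0.27 and -0.24. Of the lists, the calls toward LTED-A ranged from 14 to 17 for interferon-stimulated genes, 5 (at least 10 counts in each library) to 8 for NF-kB and acute-phase genes, and 9 to 13 for xenobiotic and steroid metabolism, leaving aside other thresholds. BCL2 was joined by up to 2 other apoptosis regulators toward LTED-D, without replicate 2 of LTED-A. With libraries thinned to the smallest, the calls of 4 named genes were lost, WNT5A and SNAI1, both under 1 CPM, and ERAP2 and NRARP, above it. Leaving out parental replicate 3 was chosen after seeing the data.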

Other observations

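Genes known to answer to oxidative stress and to supply NADPH were looked at after the values of GSTM1, AKR1C2 and NQO1 had been seen. HMOX1, which breaks down heme, was called at a log2 difference of 1.29 ± 0.10 (SE) and MAFG, a partner of NRF2, at 0.69 ± 0.04. PGD (0.54), FTH1 (0.52), TKT (0.38), TXNRD1 (0.35) and TALDO1 (0.34) were higher in LTED-A below the 1.5-fold limit. GCLC (0.04), NFE2L2 (0.13), which encodes NRF2, and SLC7A11 (-0.28) were not called.

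Noncoding genes and pseudogenes also differed, again chosen after their values were seen. DSCAM-AS1, a long noncoding RNA of luminal breast cancer, was at 10.8 ± 0.709 CPM in LTED-A against 1.64 ± 0.258 CPM in LTED-D (SD, n = 3). PCAT14 was at 10.6 ± 0.567 CPM in LTED-A against 81.9 ± 1.89 CPM in LTED-D, with 9.53 CPM in parental cells. The pseudogene CYP4Z2P was at 122 CPM in LTED-A against 30.1 CPM in LTED-D, and WFDC21P was at 51.0 CPM against 6.72 CPM. Of 5918 lncRNA genes tested, 193 (3.26%) were higher in LTED-A and 114 (1.93%) were higher in LTED-D, beside 4.47% and 5.41% over all genes. G2E3, a ubiquitin ligase, was at 36.3 ± 2.02 CPM in LTED-A against 1.73 ± 0.142 CPM in LTED-D, with 40.5 CPM in parental cells. ALB, the serum albumin gene, was at 104 ± 2.54 CPM in LTED-D against 9.71 ± 0.259 CPM in LTED-A, with 0.760 CPM in parental cells.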
